A study of Rattus norvegicus with 16 samples.

Results

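The P2X and P2Y receptors for extracellular nucleotides were followed in rat dorsal root ganglia (DRG) while a bone tumor grew in the tibia. The 10 receptor genes were taken by symbol from 21021 genes in each table, and comprise 6 P2X genes (P2rx2, P2rx3, P2rx4, P2rx5, P2rx6 and P2rx7) and 4 P2Y genes (P2ry1, P2ry2, P2ry6 and P2ry12). Their NCBI Gene identifiers in the tables are 114115, 81739, 29659, 113995, 25041 and 29665 for the P2X genes and 25265, 29597, 117264 and 64803 for the P2Y genes, in that order. P2rx2 and P2rx3 were set as neuronal, and the other 8 as glial and immune receptors. This grouping is a label only, since bulk RNA does not show which cells of the ganglion expressed each receptor. RNA came from adult female Sprague-Dawley rats, with the L3 to L5 ganglia of the injected side of 1 animal pooled as 1 sample. Tumor cell implantation (TCI) placed cells of a rat mammary carcinoma line in the left tibia, and ganglia were taken on day 1, 7 or 14, with 4 samples each. The 4 sham samples were taken on day 14 only, so treatment and time since surgery cannot be told apart on days 1 and 7. The sham injection was PBS by the sample labels and boiled tumor cells by the methods of the study.

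Cells that are stressed or damaged release ATP. P2X receptors are cation channels that ATP opens directly, whereas P2Y receptors are G protein-coupled and respond to ATP, ADP, UTP, UDP or sugar nucleotides. In the DRG, P2X3 alone or joined with P2X2 carries the ATP response of nociceptive neurons, P2X7 is known from satellite glia and macrophages, and P2Y6 and P2Y12 are best known from macrophages, microglia and platelets.

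Expression was deposited as FPKM, fragment counts scaled by transcript length and by the mapped fragments of the sample, a scale on which levels of different genes can be compared. The number of fragments behind a value is unknown. The study left out day 1 replicate 2 and day 7 replicate 3 for low correlation with the other samples, and the values below rest on the other 14 samples unless stated. Day 7 replicate 3 held far more muscle transcript than any other sample, with 24634 summed FPKM over 14 muscle genes, while sham replicate 4 had 617 and the other 14 samples 13.2 to 28.1. Day 1 replicate 2 had the highest summed FPKM of 8 Schwann cell genes, 20776 against 6081 to 13991 elsewhere. The neuronal identity of the tissue was clear, since 12 neuronal genes summed to 14849 to 18996 FPKM in the 14 samples.

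RefSeq promoter sequences on the GRCr8 assembly, which run from 250 bases before to 50 after a start site, were found for 6 of the 10 receptors (P2rx3, P2rx4, P2rx6, P2rx7, P2ry1 and P2ry2) and for P2rx1, P2ry4, P2ry10, P2ry13 and P2ry14. P2rx3 is shown as the most abundant receptor, P2rx7 as an immune receptor that did not pass the test, and P2ry13 and P2ry14 as genes near P2ry12 that rose on the same days. Capitals mark the motif GAGGAA or its reverse complement TTCCTC, a purine-rich core bound by the myeloid factor PU.1. It was the 1 motif searched, on both strands, and was chosen after expression values had been seen.
P2rx3 (chr3:90531266-90531565, minus strand): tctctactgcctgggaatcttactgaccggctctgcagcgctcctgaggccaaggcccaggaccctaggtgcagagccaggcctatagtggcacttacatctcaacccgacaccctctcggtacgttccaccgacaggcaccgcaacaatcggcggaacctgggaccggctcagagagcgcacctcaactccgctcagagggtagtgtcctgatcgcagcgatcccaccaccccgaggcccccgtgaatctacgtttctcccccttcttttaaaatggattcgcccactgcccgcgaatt
P2rx7 (chr12:39594873-39595172, minus strand): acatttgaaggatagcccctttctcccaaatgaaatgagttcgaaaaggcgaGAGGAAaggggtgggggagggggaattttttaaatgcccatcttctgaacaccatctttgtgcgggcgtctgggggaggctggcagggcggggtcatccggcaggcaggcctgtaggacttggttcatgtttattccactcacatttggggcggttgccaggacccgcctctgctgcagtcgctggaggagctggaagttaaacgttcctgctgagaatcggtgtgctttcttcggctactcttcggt
P2ry13 (chr2:145622735-145623034, minus strand): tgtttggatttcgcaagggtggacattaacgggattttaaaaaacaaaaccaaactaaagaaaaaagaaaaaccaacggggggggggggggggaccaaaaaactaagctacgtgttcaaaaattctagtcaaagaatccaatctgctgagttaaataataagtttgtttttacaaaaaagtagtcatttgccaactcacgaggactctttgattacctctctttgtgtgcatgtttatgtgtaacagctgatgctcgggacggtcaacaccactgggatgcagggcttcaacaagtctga
P2ry14 (chr2:145538461-145538760, minus strand): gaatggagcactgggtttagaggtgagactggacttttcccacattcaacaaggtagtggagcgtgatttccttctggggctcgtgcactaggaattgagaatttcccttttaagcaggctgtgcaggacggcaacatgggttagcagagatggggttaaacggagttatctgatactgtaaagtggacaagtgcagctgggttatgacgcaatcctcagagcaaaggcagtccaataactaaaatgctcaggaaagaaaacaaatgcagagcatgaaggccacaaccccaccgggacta
The motif was in the promoters of P2rx4, P2rx6, P2rx7, P2rx1, P2ry4 and P2ry10, in neither of the 2 P2rx3 promoters, and in none of those of P2ry1, P2ry2, P2ry13 and P2ry14. Of all 33469 promoters in the table, 27.6% held it.

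P2rx3 was by far the most abundant receptor of the ganglion. In sham, the P2rx3 level was 101 ± 4.40 FPKM (SD, n = 4), and it made up 57.9% ± 1.46 of the summed FPKM of the 10 receptors. P2rx4 (15.67 to 16.39 FPKM), P2rx6 (11.68 to 16.99) and P2ry2 (11.71 to 12.26) followed, and the sham ranges of P2rx4 and P2rx6, and of P2rx6 and P2ry2, overlapped. P2ry1 (9.37 FPKM), P2rx5 (8.41) and P2rx7 (7.63) overlapped in the same way from one to the next. P2rx2 (2.54 FPKM), P2ry12 (1.65) and P2ry6 (0.775) were lowest, and their sham ranges were apart from each other and from that of P2rx7. P2rx2, the partner subunit of P2X3, thus stood far below it, with a P2rx3 to P2rx2 ratio of 39.9 ± 3.80 in sham.

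**Figure D1:**
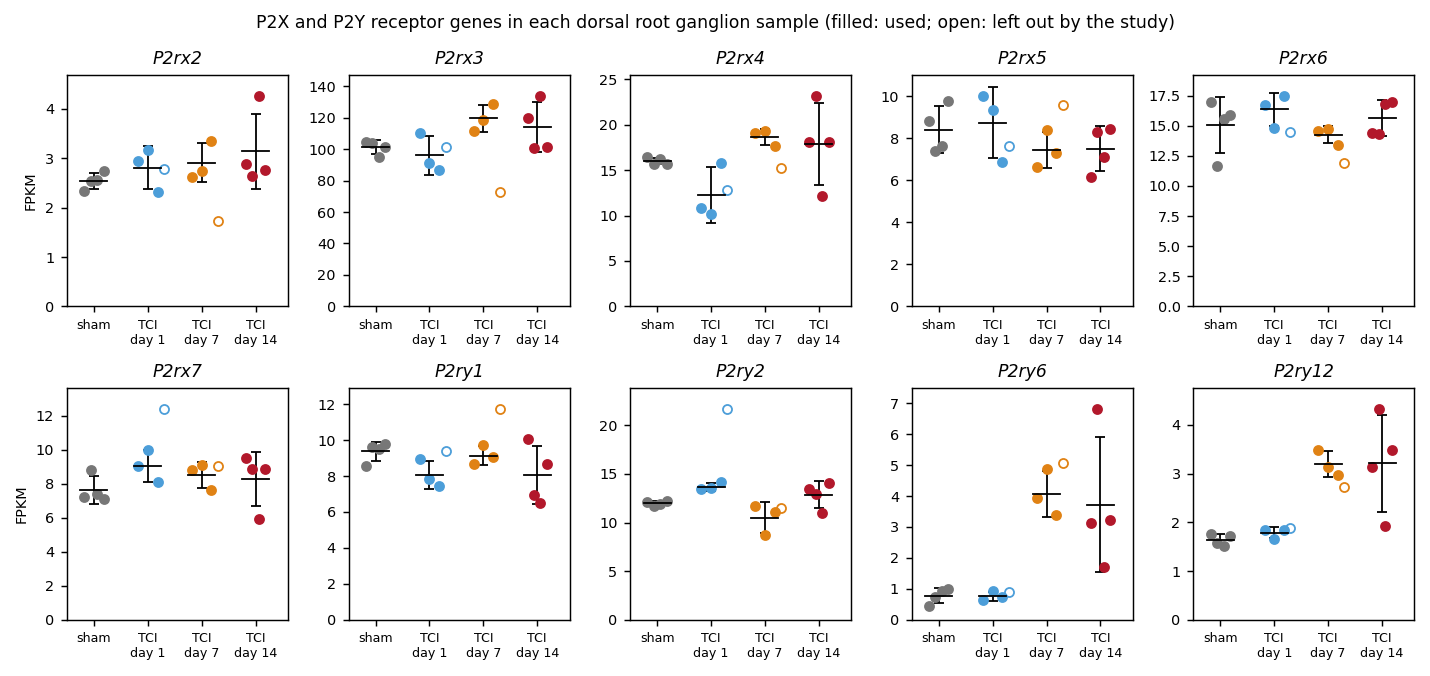
FPKM of each receptor gene in every sample, with the group mean and SD over the filled points; open points are the 2 samples the study left out, and every axis starts at 0. P2ry6 and P2ry12 stand higher on days 7 and 14 than in sham, whereas the sham and tumor points of P2rx2, P2rx5, P2rx6 and P2rx7 overlap on each day.

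Of the 10 receptors, P2ry6 and P2ry12 rose on days 7 and 14 after TCI, and none passed the test on day 1. Changes were tested with limma on log2(FPKM + 1) over all 14023 genes that reached 1 FPKM in at least 3 samples, and a gene was called at an adjusted p of at most 0.05. All 10 receptors passed the filter, P2ry6 only through the samples of days 7 and 14. On day 7, 2 of 10 receptors were called, beside 17.9% of all genes tested, and 14.5% were called higher. On day 14, 2 of 10 were called, beside 15.1% of all genes and 11.9% called higher. The share of receptors called was therefore near that of all genes. On day 1, 0% of genes were called, and 5.23% had an unadjusted p under 0.05. The lack of a receptor call on day 1 therefore does not show that no receptor changed.

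P2ry6 encodes a receptor for UDP, known from phagocytes. In the sham samples P2ry6 was at 0.45, 0.72, 0.93 and 1.00 FPKM, and on day 1 at 0.63, 0.92 and 0.73. On day 7 it was at 3.95, 4.86 and 3.39 FPKM, and on day 14 at 3.12, 6.82, 1.70 and 3.22. Every sample of day 7 and day 14 lay above every sham sample, as was true of 23.8% of all genes on day 7 and 13.8% on day 14. The group means were 5.25 times that of sham on day 7 and 4.79 times on day 14. On the log2(FPKM + 1) scale, which understates the change of genes this low, P2ry6 rose by 1.51 ± 0.26 (SE, limma, adjusted p = 0.0017) on day 7 and by 1.31 ± 0.24 (adjusted p = 0.0038) on day 14. On day 1 the P2ry6 difference from sham was -0.0045 (adjusted p = 0.999).

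P2ry12 encodes the ADP receptor of platelets and microglia. P2ry12 was at 1.76, 1.58, 1.52 and 1.72 FPKM in sham, and at 1.85, 1.65 and 1.85 on day 1. It reached 3.48, 3.14 and 2.97 FPKM on day 7, and 3.13, 4.33, 1.93 and 3.48 on day 14. The day 7 and day 14 samples again lay above all sham samples, although day 14 replicate 3 did so by little. The mean P2ry12 level was 1.94 times that of sham on day 7 and 1.96 times on day 14. The log2 fold change was 0.67 ± 0.15 (SE, limma, adjusted p = 0.0078) on day 7 and 0.64 ± 0.14 (adjusted p = 0.0084) on day 14. Neither P2ry6 nor P2ry12 passed the stricter cut-off of the study, a log2 fold change of at least 1 with an adjusted p of at most 0.001, which 1.83% of genes passed on day 7 and 0.642% on day 14.

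Day 14 replicates 2 and 3 set much of the spread on day 14. Replicate 2 had the highest P2ry6, P2ry12 and P2rx4 values of its group, and replicate 3 the lowest of these and of P2rx7 and P2ry1, with the highest P2rx3 and P2rx2. Together P2ry6 and P2ry12 took 1.39% ± 0.134 (SD) of the summed receptor FPKM in sham and 1.51% ± 0.142 on day 1. Their share was 3.67% ± 0.492 in the day 7 samples and 3.60% ± 1.71 in those of day 14.

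**Figure D2:**
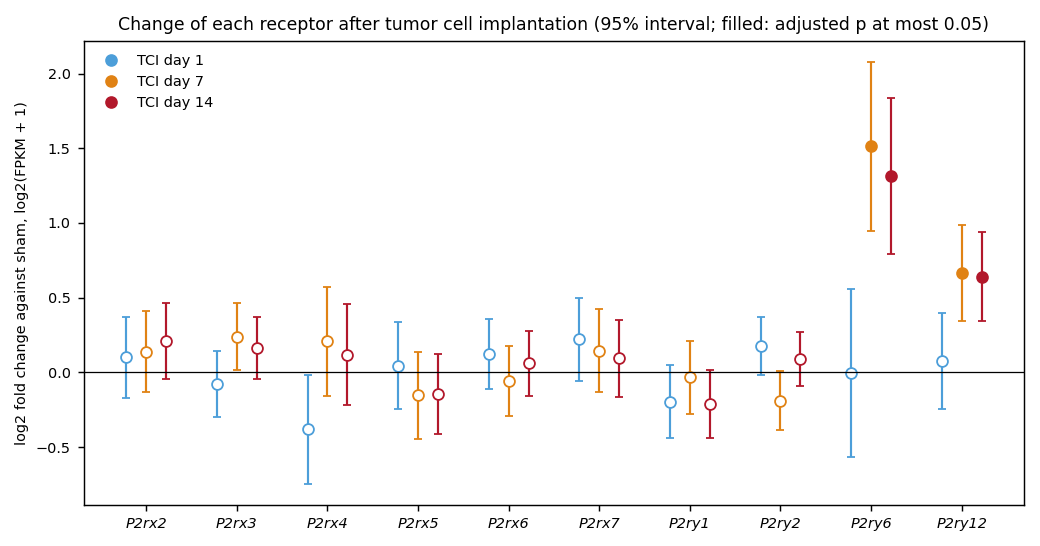
Log2 fold change of each receptor against sham on the log2(FPKM + 1) scale, with its 95% interval from limma, for TCI days 1, 7 and 14; filled points have an adjusted p of at most 0.05. The filled points are those of P2ry6 and P2ry12 on days 7 and 14.

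The neuronal receptors did not pass the test on any day. P2rx3 was at 104.57, 103.66, 94.82 and 101.45 FPKM in sham and at 111.59, 118.50 and 128.78 on day 7. The 3 day 7 samples lay above the sham samples, as 23.8% of all genes did. The P2rx3 difference on day 7 was 0.24 on the log2 scale (95% interval 0.017 to 0.461, limma, adjusted p = 0.132). It was called when day 7 and sham alone were fitted (adjusted p = 0.0203), and day 7 replicate 3, which the study left out, was at 72.50 FPKM, below all sham samples. On day 14 P2rx3 ranged from 100.75 to 134.06 FPKM and overlapped sham, with a difference of 0.16 (interval -0.0441 to 0.367, adjusted p = 0.280). On day 1 the P2rx3 difference was -0.08 (interval -0.301 to 0.143). P2rx2 was at 2.33, 2.53, 2.57 and 2.74 FPKM in sham, 2.62, 2.75 and 3.36 on day 7, and 2.89, 2.64, 4.27 and 2.76 on day 14. Its differences were 0.14 (interval -0.133 to 0.411) on day 7 and 0.21 (interval -0.0422 to 0.461) on day 14, so a P2rx2 rise of that upper size could not be told from no change.

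Of 12 neuronal marker genes, 5 fell on day 7 and 5 on day 14, among them the neurofilament genes Nefl, Nefm and Nefh, beside 3.45% and 3.21% of all genes called lower. Their summed FPKM was 18065 to 18996 in sham and 15146 to 15942 on day 7. Of 9 genes of nonpeptidergic nociceptors, the neurons in which P2X3 is most abundant, none was called on any day, with median log2 fold changes of 0.12 on day 7 and 0.05 on day 14. In bulk RNA fewer cells of a type, less RNA per cell and a larger share of RNA from other cells cannot be told apart.

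P2rx4 and P2rx7, neighbouring genes for channels of macrophages and glia, did not pass the test either. P2rx4 was at 16.39, 15.70, 16.20 and 15.67 FPKM in sham, 10.84, 10.20 and 15.76 on day 1, and 19.07, 19.28 and 17.60 on day 7. The day 7 samples lay above sham, as 23.8% of all genes did, and 2 of the 3 day 1 samples lay below it. The left-out day 7 replicate 3, rich in muscle transcript, had P2rx4 at 15.22 FPKM, below all sham samples. The left-out day 1 replicate 2, at 12.78 FPKM, was also below all sham samples. The P2rx4 difference was -0.38 (95% interval -0.745 to -0.0154, limma, adjusted p = 0.939) on day 1 and 0.21 (interval -0.156 to 0.574, adjusted p = 0.439) on day 7. In the fit of day 7 and sham alone P2rx4 was called (adjusted p = 0.0146). On day 14 P2rx4 spread from 12.14 to 23.20 FPKM, on both sides of sham.

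P2rx7, the channel that drives the NLRP3 inflammasome, was at 7.20, 8.84, 7.38 and 7.10 FPKM in sham, 8.84, 9.09 and 7.66 on day 7, and 9.50, 8.86, 5.95 and 8.85 on day 14. On day 1 P2rx7 was at 9.04, 9.99 and 8.13 FPKM, and the left-out day 1 replicate 2 had its highest value, 12.41. The tumor groups overlapped sham. The P2rx7 difference was 0.22 (interval -0.0572 to 0.499, limma, adjusted p = 0.959) on day 1. It was 0.14 (interval -0.133 to 0.422, adjusted p = 0.485) on day 7 and 0.09 (interval -0.164 to 0.350, adjusted p = 0.645) on day 14.

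P2ry2, a receptor for ATP and UTP and the neighbour of P2ry6 on the chromosome, was at 11.71 to 12.26 FPKM in sham, 13.43, 13.50 and 14.17 on day 1, and 11.68, 8.68 and 11.08 on day 7. All day 1 samples lay above sham, as 6.17% of genes did, and all day 7 samples below it, as 10.1% of genes did. Neither difference was called against sham (0.18, adjusted p = 0.939, and -0.19, adjusted p = 0.177, limma). P2ry2 was called lower on day 7 when each sample was centred on its median (-0.30, adjusted p = 0.0223) or quantile normalization was used (-0.29, adjusted p = 0.0277). P2ry1, an ADP receptor, ranged from 8.58 to 9.78 FPKM in sham and from 6.51 to 10.05 on day 14, with a difference of -0.21 (adjusted p = 0.197). Without day 14 replicate 1 it was called lower (-0.31, adjusted p = 0.0342). P2rx5 and P2rx6, P2X subunits that form poor channels on their own, stayed between 6.17 and 10.04 FPKM and between 11.68 and 17.50 FPKM over the 14 samples, and their ranges overlapped sham on each day.

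Days were also compared with each other. Between day 14 and day 7 no receptor was called, beside 0.0998% of all genes. The comparisons with day 1 were added after seeing the data. P2ry6 was higher on day 7 than on day 1 (1.52, limma, adjusted p = 0.0040), and so was P2ry12 (0.59, adjusted p = 0.0312), while P2ry2 was lower (-0.37, adjusted p = 0.0292), beside 10.4% of all genes called. P2ry6 (1.32, adjusted p = 0.0118) and P2ry12 (0.57, adjusted p = 0.0380) were also higher on day 14 than on day 1, beside 6.96% of all genes. The P2ry12 and P2ry2 calls were lost under several alternatives given in the closing section.

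Schwann cell genes moved in the same direction as P2ry2 on days 1 and 7, but not on day 14. The summed FPKM of the 8 Schwann cell genes was 8428 to 11303 in sham, 12582 to 13991 on day 1 and 6929 to 8599.6 on day 7. Day 1 lay above the other groups, while day 7 overlapped sham. Of the 8 genes, 7 were called lower on day 7 than on day 1, beside 10.4% of all genes called, with a median log2 fold change of -0.60 over the list. On day 14 against day 1, 4 were called lower, beside 6.96% of all genes called. P2ry2 was not called there (-0.09, limma, adjusted p = 0.643). None of the 8 Schwann cell genes was called against sham on day 1, 7 or 14, with medians of 0.35, -0.23 and -0.15. The P2ry2 difference from sham on day 14 was 0.09. Day 1 replicate 2, left out by the study, had the highest P2ry2 value (21.69 FPKM) as well as the highest Schwann cell sum. Of 8 satellite glia genes, 2 were higher and 1 lower than sham on day 7, beside 14.5% and 3.45% of all genes. On day 14, 2 were lower, beside 3.21% of all genes. The part of these cells in the receptor values was not tested.

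To ask whether other receptors changed differently from the neuronal P2rx3, each gene was tested as its log2(FPKM + 1) minus that of P2rx3 in the same sample. P2ry6 rose relative to P2rx3 by 1.28 ± 0.31 (SE, limma, adjusted p = 0.0215) on day 7, beside 7.72% of all genes called, and by 1.15 ± 0.29 (adjusted p = 0.0395) on day 14, beside 2.54%. The day 7 call was lost without sham replicate 1 or 2 or day 7 replicate 1 or 2. The day 14 call was lost over all 16 samples and on leaving out any 1 of 10 samples. P2ry12 relative to P2rx3 was at 0.43 (interval -0.0447 to 0.898, adjusted p = 0.192) on day 7 and 0.48 (interval 0.0436 to 0.916, adjusted p = 0.207) on day 14, so a difference between P2ry12 and P2rx3 was not shown.

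Macrophage genes rose on the same days as P2ry6 and P2ry12. All 12 macrophage marker genes rose on day 7 and 10 on day 14, beside 14.5% and 11.9% of all genes called higher. Their summed FPKM spanned 62.3 to 120 in sham and 82.6 to 100 on day 1. It reached 842 to 1142 in the day 7 samples and 479 to 1667 in those of day 14. None of the 12 was at 0 in any group. Day 14 replicate 2 held the highest sum as well as the highest P2ry6 and P2ry12. Within groups the order did not always match. Day 14 replicate 4 had the lowest sum of its group (479), with P2ry6 at 3.22 and P2ry12 at 3.48 FPKM. Replicate 3, at a sum of 490, had the lowest of both (1.70 and 1.93). On day 7 the order matched for P2ry6, whereas P2ry12 was highest in replicate 1 and the sum in replicate 2. All 9 T cell genes tested rose on both days, beside the same shares of all genes. The T cell list summed to only 5.85 to 8.68 FPKM in sham, with Cd8b at 0, and its median ratio to sham on day 7 was 50.7. In any list, genes under 1 FPKM in sham and on day 1 pass the filter only through days 7 and 14. That favours a rise, so the T cell count cannot be compared fairly with the share of all genes. Of 6 microglial genes 4 could be tested, while Siglech was at 0 to 0.20 FPKM. Beside the same shares of all genes, 3 rose on day 7 (Tmem119, Gpr34 and Cx3cr1) and 2 on day 14 (Gpr34 and Cx3cr1). The part of these cells in the receptor changes was not tested.

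**Figure D3:**
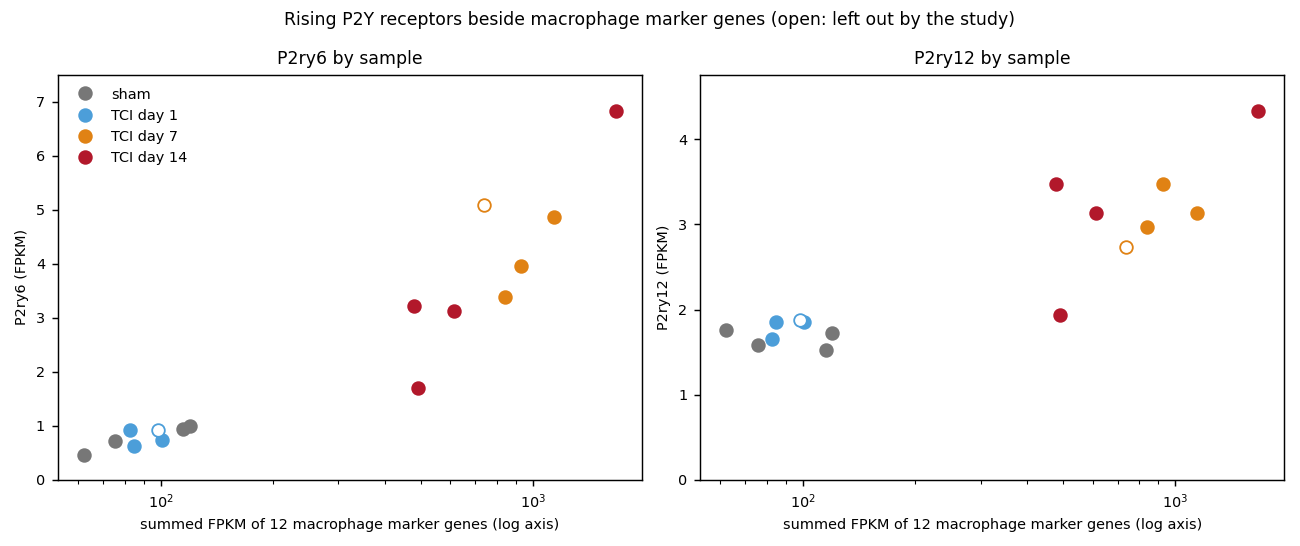
FPKM of P2ry6 (left) and P2ry12 (right) against the summed FPKM of 12 macrophage marker genes on a log axis, 1 point a sample, colored by group; open points were left out by the study. Sham and day 1 samples sit at 62.3 to 120 on the horizontal axis and all day 7 and 14 samples at 479 or more.

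The genes whose changes lay closest to that of P2ry6 over the 10 tumor samples were Vav1 and Spn, which encode a signalling protein and a surface glycoprotein of leukocytes, and Cd300lf, a myeloid surface receptor. Their root mean square differences from P2ry6 in change from the sham mean were 0.149 to 0.152 on the log2 scale. All were low in sham, with means of 0.17 to 0.35 FPKM. The genes closest to P2ry12 were Hk2 (hexokinase), Ddr2 (a collagen receptor) and Piezo1 (a mechanically gated channel), at 0.0998 to 0.119. P2ry13, a P2ry12 neighbour on the chromosome, ranked 30 for likeness to P2ry12, and P2ry14 ranked 139. P2ry6 ranked 10604 for likeness to P2ry12, at a difference of 0.666, and P2ry12 ranked 549 for likeness to P2ry6.

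Genes of nucleotide signalling and of the P2X7 inflammasome were counted from lists of 44 genes, of which 36 were tested. On day 7, 17 were higher and 1 lower, and on day 14, 10 were higher and 3 lower. The inflammasome list, 10 of the 36 genes, held 9 of the 17 higher on day 7 and 7 of the 10 on day 14. All genes had 14.5% and 11.9% higher, and 3.45% and 3.21% lower. The median change of the 36 was 0.33 on day 7 and 0.25 on day 14 (log2 scale), against 0.04 and 0.03 over all genes. The list medians on days 7 and 14 were 0.90 and 0.73 for the inflammasome and 0.85 and 0.61 for the 2 other P2 receptors. P2ry13, P2ry14, Nlrp3 and Casp1 are among the genes that passed the filter only through days 7 and 14. For such genes the filter favoured a rise, so counts and medians that include them can overstate it. The medians were 0.03 and -0.07 for ATP release, 0.17 and 0.12 for ectonucleotidases and 0.20 and 0.16 for adenosine genes.

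Of the other P2 receptors, P2ry13 (an ADP receptor) and P2ry14 (a UDP-glucose receptor) were tested and rose on both days. Both stayed under 1 FPKM in the sham and day 1 samples used and passed the filter only through days 7 and 14. Their joint rise thus follows in part from the filter. P2rx1, P2ry4 and P2ry10 stayed under 1 FPKM in all samples and were not tested. On day 7 P2rx1 (0.30 to 0.71 FPKM, sham 0.12 to 0.26) and P2ry10 (0.20 to 0.77, sham 0.02 to 0.04) lay above sham, as 23.8% of tested genes did. P2ry4 overlapped it. P2ry14 was at 0.89, 0.70, 0.68 and 0.84 FPKM in sham, 2.41, 2.65 and 2.72 on day 7, and 1.70, 2.97, 0.90 and 2.10 on day 14. Its lowest day 14 value, in replicate 3, was next to the highest sham value. P2ry14 rose by 1.02 ± 0.18 (SE, limma, adjusted p = 0.0019) on day 7 and by 0.67 ± 0.17 (adjusted p = 0.0169) on day 14. P2ry13 was at 0.24 to 0.67 FPKM in sham, 0.92 to 1.39 on day 7 and at least 0.82 on day 14, with differences of 0.68 (adjusted p = 0.0032) and 0.55 (adjusted p = 0.0089).

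Of 6 genes of ATP release, the channel genes Panx1 (0.24, limma, adjusted p = 0.0441) and Calhm2 (0.53, adjusted p = 0.0064) rose on day 7, and none was called on day 14. Beside these and the following counts, 14.5% of all genes were higher and 3.45% lower on day 7. On day 14 the shares were 11.9% and 3.21%. The 1 rise among 11 ectonucleotidases on day 7 was within the share of all genes. Of 11 ectonucleotidases, which break down extracellular nucleotides, Enpp3 rose and Entpd6 fell by 0.22 on the log2 scale (adjusted p = 0.0219) on day 7. Enpp3 was at 2.52 to 3.17 FPKM in sham, 9.53, 6.63 and 6.70 on day 7, and 2.36 to 4.69 on day 14. All day 7 samples lay above sham, as 23.8% of all genes did, and day 14 overlapped sham. Enpp3 rose by 1.12 ± 0.16 (SE, adjusted p = 0.000496) on day 7 and was lower on day 14 than on day 7 (-0.996, adjusted p = 0.0422), a call that many alternatives lost. On day 14 Entpd5 (-0.23, adjusted p = 0.0189), Enpp1 (-0.26, adjusted p = 0.0332) and Alpl (-0.38, adjusted p = 0.0152) fell. Of 7 genes for adenosine, the product of this breakdown, the receptors Adora2a (0.42, adjusted p = 0.0114) and Adora2b (0.51, adjusted p = 0.0115) and the deaminase Ada (0.53, adjusted p = 0.0283) rose on day 7, and Adora2a (0.30, adjusted p = 0.0456) on day 14.

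Most genes of the P2X7 inflammasome list rose, and P2rx7 itself was not called. The list holds general inflammasome and interleukin-1 genes that are not particular to P2X7, and P2X7 activity was not measured. Of 10 listed genes, 9 rose on day 7 and 7 on day 14, beside 14.5% and 11.9% of all genes, with median log2 fold changes of 0.90 and 0.73. Some of them, such as Nlrp3 and Casp1, passed the filter only through days 7 and 14, which favoured a rise. Casp1, the protease that matures interleukin-1β and interleukin-18, was at 1.03, 0.52, 1.01 and 0.61 FPKM in sham, 5.16, 6.62 and 5.37 on day 7, and 2.75, 7.90, 2.47 and 2.57 on day 14. The tumor samples of both days lay above sham, as 23.8% of all genes did on day 7 and 13.8% on day 14. Casp1 rose by 1.91 ± 0.26 (SE, limma, adjusted p = 0.000405) on day 7 and by 1.34 ± 0.24 (adjusted p = 0.0035) on day 14. Rises on both days were also called for the adaptor Pycard (1.96 and 1.68), Il18 (1.71 and 1.41), the pore protein Gsdmd (0.91 and 0.63), the sensor Nlrp3 (0.84 and 0.71), Txnip (0.76 and 0.67) and Casp4 (0.57 and 0.57). Il1b (0.89, adjusted p = 0.0367) and Il1rn (1.73, adjusted p = 0.0042) were called on day 7 but not on day 14 (adjusted p = 0.0589 and 0.0569). Nek7 was at -0.09 and -0.07 and was not called. These genes were high together with the 12 macrophage genes, and day 14 replicate 2 was the highest of its group for Casp1, Pycard, Il18 and Il1b.

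**Figure D4:**
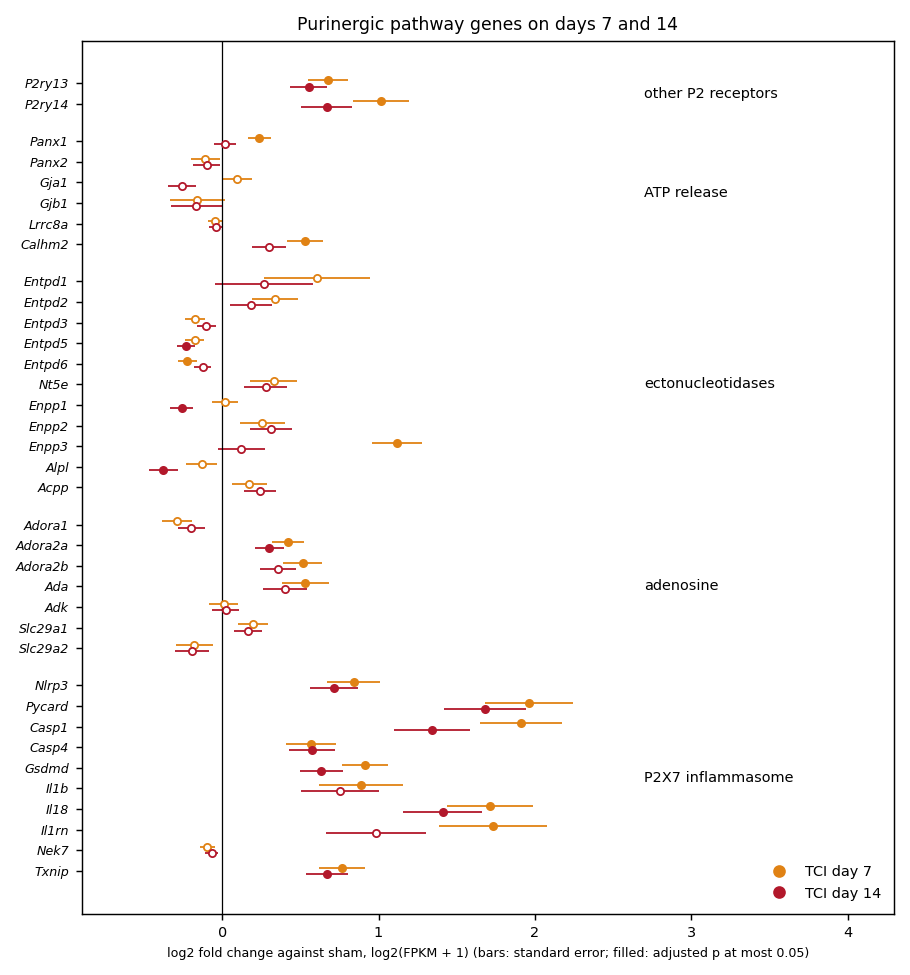
Log2 fold change against sham, with its standard error, on TCI days 7 and 14. The genes are those tested from 5 lists of nucleotide signalling and P2X7 inflammasome genes. Filled points have an adjusted p of at most 0.05. The P2X7 inflammasome list has 9 filled points on day 7 and 7 on day 14, and the ATP release list has 2 and 0.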

How the data were processed

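Total RNA of 16 ganglion samples was sequenced. By the methods of the study, the authors filtered reads, mapped them with HISAT and Bowtie2, quantified genes with RSEM and deposited FPKM, 1 table a sample, rounded to 2 decimals. The submitters' processing notes name CASAVA 1.4 and Bowtie2. Genome build, annotation and other versions are not given in the sources used here. FPKM sums ran from 436572 to 473959, and depth is unknown.

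Here log2(FPKM + 1) was fitted with limma 3.58.1 (R 4.3.3, eBayes with trend) over 4 groups and 14 samples, for genes of at least 1 FPKM in at least 3 samples, with Benjamini-Hochberg adjustment over all genes. Tables were made in Python 3.11.15. The fit was tested on simulated data. Receptors, lists and tests were chosen with earlier results of these data known. Named genes were all receptors, pathway genes called on day 7 or 14, and the 3 genes most like each called receptor; genes outside this rule, such as marker genes, were chosen after their values were seen. Samples of a group are separate animals. Alternatives were all 16 samples, 2-group fits, no trend, a pseudocount of 0.1, other filters, other scalings, the stricter cut-off, a replicate block and each sample left out.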

Additional observations from a re-analysis of the deposited data

Results flagged for a closer look

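In 4 of 40 sets of 4 samples (a receptor in a group, all 16 samples) 1 sample lay far from the other three, where chance gives about 1 in 20 sets. These were P2rx2 on day 14 (replicate 3, 4.27 FPKM), P2rx7 in sham (replicate 2, 8.84 FPKM), P2ry2 on day 1 (replicate 2, 21.69 FPKM) and P2ry12 on day 1 (replicate 3, 1.65 FPKM).

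Effects against the same sham samples differed between days by limma's test of the difference for P2ry6 on day 7 against day 1 (1.52, adjusted p = 0.0040) and day 14 against day 1 (1.32, adjusted p = 0.0118), for P2ry12 (0.59, adjusted p = 0.0312, and 0.57, adjusted p = 0.0380) and for P2ry2 on day 7 against day 1 (-0.37, adjusted p = 0.0292).

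In the 2 samples the study left out, P2ry2 was at 21.69 FPKM in day 1 replicate 2, and P2ry6 and P2ry12 were at 5.08 and 2.73 FPKM in day 7 replicate 3, each over 1.5 times the highest sham value, a limit set after seeing the data.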

How the results depend on the processing

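P2ry6 and P2ry12 were called higher than sham on days 7 and 14 in all 23 alternative fits in which they were tested, but neither passed the stricter cut-off of the study on either day. P2ry6 ranged from 1.27 to 2.29 on day 7 and from 1.03 to 2.01 on day 14, and P2ry12 from 0.44 to 0.92 and from 0.50 to 0.87. Quantile normalization moved the median log2 fold change of all genes on day 7 from 0.04 to -0.07.

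Under the study's cut-off 0 receptors were called in each comparison, and of the pathway genes 3 on day 7, 0 on day 14 and 0 between these days. With a mean of at least 5 FPKM, which by construction leaves out P2ry6, P2ry12 and P2rx2, 0 receptors were called on days 7 and 14 and 0 on day 14 against day 1, 1 on day 7 against day 1, 0 relative to P2rx3 on both days, and 6, 5 and 0 pathway genes on day 7, on day 14 and between them. With only the 2 groups compared, 4 receptors were called on day 7, 0 on day 14 against day 1, 5 and 0 relative to P2rx3 on days 7 and 14, and 7 and 0 pathway genes on day 14 and between days 14 and 7. Relative to P2rx3, quantile normalization called 4 receptors on day 7 and 2 on day 14, and on day 14 all 16 samples and the fit without the trend called 0. On day 14 against day 1, no filter and TPM scaling called 1 receptor. The 1 pathway gene called between days 14 and 7 (0 with all 16 samples, a pseudocount of 0.1 or TPM scaling) was Enpp3.

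Leaving out 1 sample at a time gave 1 to 5 receptors on day 7 against day 1 (1 without day 1 replicate 3 or day 7 replicate 2, 5 without day 14 replicate 3), 0 to 3 on day 14 against day 1 (0 without day 1 replicate 1), 0 to 2 relative to P2rx3 on each of days 7 and 14 (2 without day 14 replicate 3), and 0 to 3 pathway genes between days 14 and 7 (3 without day 14 replicate 2). The P2ry2 and P2ry12 calls of day 7 against day 1 held in 19 of 24 and 15 of 23 alternatives, and the P2ry12 call of day 14 against day 1 in 7 of 23. The cause was not tested.

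With the replicate number as a block, 2 receptors were called on day 7 and 2 on day 14 against sham, 2 on day 7 against day 1, 1 on day 14 against day 1, and 16, 13 and 0 pathway genes on day 7, on day 14 and between them. Samples with the same number are different animals. Their deviations from the group mean correlated at -0.095 to 0.269, over 0.1 in 4 of 18 pairs. Samples with different numbers correlated at -0.326 to 0.410, over 0.1 in 8 of 55 pairs. The labels state no pairing, and with groups this small the check cannot exclude a batch shared by number.

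Of 2059 log2 fold changes under an alternative, 54 changed sign, and 0 of these were called in either fit. With all 16 samples the sign differed for P2rx2 day 7 against day 1 (-0.089), P2rx3 day 14 against day 7 (0.10), P2rx4 relative to P2rx3 on day 7 (0.079), P2rx5 day 14 against day 7 (-0.076), P2rx7 relative to P2rx3 on day 7 (0.10), P2ry1 on day 7 (0.049), P2ry6 on day 1 (0.026) and P2ry12 day 14 against day 7 (0.018). With median centring the sign differed for P2rx2 day 7 against day 1 (-0.067), P2rx6 on day 14 (-0.00952) and P2ry12 day 14 against day 7 (0.016). With quantile normalization the sign differed for P2rx2 on day 7 (-0.087), P2rx2 day 7 against day 1 (-0.17), P2rx2 day 14 against day 1 (-0.014), P2rx2 relative to P2rx3 on day 14 (-0.0596) and P2ry12 day 14 against day 7 (0.059). With the replicate block the sign differed for P2ry6 on day 1 (0.12) and P2ry12 day 14 against day 7 (0.051). With a pseudocount of 0.1 the sign differed for P2ry6 on day 1 (0.011). On leaving out 1 sample at a time it changed for P2rx2 day 14 against day 7 (-0.051 to 0.15), P2rx2 day 7 against day 1 (-0.057 to 0.11), P2rx2 day 14 against day 1 (-0.012 to 0.18), P2rx4 on day 14 (-0.011 to 0.28), P2rx4 day 14 against day 7 (-0.22 to 0.073), P2rx4 relative to P2rx3 on day 7 (-0.094 to 0.063), P2rx4 relative to P2rx3 on day 14 (-0.23 to 0.20), P2rx5 on day 1 (-0.052 to 0.19), P2rx5 day 14 against day 7 (-0.062 to 0.086), P2rx6 on day 14 (-0.049 to 0.12), P2rx7 day 14 against day 7 (-0.12 to 0.082), P2rx7 day 14 against day 1 (-0.20 to 0.0059), P2rx7 relative to P2rx3 on day 7 (-0.17 to 0.027), P2rx7 relative to P2rx3 on day 14 (-0.16 to 0.15), P2ry1 on day 7 (-0.074 to 0.0011), P2ry1 day 14 against day 1 (-0.12 to 0.067), P2ry2 relative to P2rx3 on day 14 (-0.17 to 0.077), P2ry6 on day 1 (-0.098 to 0.057), P2ry6 day 14 against day 7 (-0.48 to 0.032), P2ry6 relative to P2rx3 on day 1 (-0.035 to 0.23) and P2ry12 day 14 against day 7 (-0.15 to 0.14).

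Groups of 3 or 4 samples and FPKM without read totals limit the precision.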
